A study of Triticum aestivum with 34 samples.

Results

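The 7 wheat gene models described here are annotated as 9-cis-epoxycarotenoid dioxygenases (NCED), the enzymes whose cleavage reaction limits the rate of abscisic acid synthesis. They were listed by their names in the deposited table, with earlier results of these data known, and are 7 of 162233 models in it. Their transcripts were measured by RNA sequencing in spikelets, which carry the florets on the wheat ear. Basal and central spikelets of Triticum aestivum, genotype shimai22, all untreated, were taken 6, 9, 12, 15, 21 and 27 days after the terminal spikelet stage, at which the ear stops adding spikelets. The 34 libraries form 12 groups, 1 for each position on each day, with n = 3 except for n = 2 in basal day 15 and in central day 21. The labels name no transgene, deletion or treatment in any group. The number of plants behind a library, the hour of sampling and whether replicates came from separate plants are not given in the sources used here, so p-values measure the spread between libraries, which may be technical.

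Abscisic acid is made from carotenoids. Zeaxanthin epoxidase and later enzymes turn zeaxanthin into violaxanthin and neoxanthin in the plastid, an NCED cleaves their 9-cis forms to xanthoxin, and a dehydrogenase and an aldehyde oxidase convert xanthoxin into the hormone in the cytosol. The cleavage is the first step committed to abscisic acid, and NCED genes are known for rapid transcriptional induction by water deficit. Abscisic acid 8'-hydroxylases break the hormone down. In cereal ears abscisic acid is known mainly for its links with stress, floret sterility and grain development.

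The 7 models lay at 2 places on each of the chromosomes 5A, 5B and 5D, all on the plus strand. Coordinates are those of the deposited table, which names no genome build. Locus 1, near the start of the chromosomes, held TraesCS5B03G0068800 (5B from 29525337 to 29528024) and TraesCS5D03G0099600 (5D from 39036436 to 39039005). Its 5A copy was split into TraesCS5A03G0075100LC (5A from 29449637 to 29451091) and TraesCS5A03G0075200LC (5A from 29451106 to 29451480). These are low-confidence models 14 bases apart, and both fell inside 1 gene that RefSeq annotates as a pseudogene (LOC123102102). Locus 2 held TraesCS5A03G0898000 (5A from 573957206 to 573958981, deposited as dioxygenase 2A), TraesCS5B03G0943700 (5B from 557004391 to 557006844) and TraesCS5D03G0859900 (5D from 456098308 to 456100095). The other 5 models overlapped protein-coding genes in RefSeq. Homoeologs, the copies of a gene in the A, B and D subgenomes, are often near identical. How alike these copies are was not measured here. The division of reads among them depends on the authors' counting and is uncertain. An eighth model with the name (TraesCS2A03G0603200 on 2A) was not among the 7 listed. It was at most 0.13 FPKM (fragment counts normalized to transcript length and library size) before day 27 and between 0.49 and 0.94 FPKM on day 27.

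The deposited estimated counts summed to between 95144712 and 126139684 per library, and no pair of libraries held identical values. The tests covered the 71963 models that reached 1 FPKM in 2 or more libraries, and all 7 members passed this filter. Floral MADS-box genes, which specify floral organs, summed to between 415 and 1130 FPKM in a library and so were present in every one.

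The 7 members were more abundant in basal than in central spikelets, with 5, 7 and 6 of them called higher on days 6, 9 and 12 (7.91%, 18.1% and 13.6% of all tested models). The differences were largest on day 9, and no member was called higher in basal spikelets on day 27. The plot of levels by library shows both positions. In the mean of the 6 days, all 7 were called higher in basal spikelets at an adjusted p under 0.05, where 16% of all tested models were called higher. The log2 differences, basal minus central, ran from 0.62 to 1.45 with a median of 1.30. Leaving out day 9 also gave 7 of 7 called higher (11.7% of all tested models), with log2 differences from 0.36 to 1.11. In bulk tissue, fewer cells of a type and less RNA per cell cannot be told apart.

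**Figure D1:**
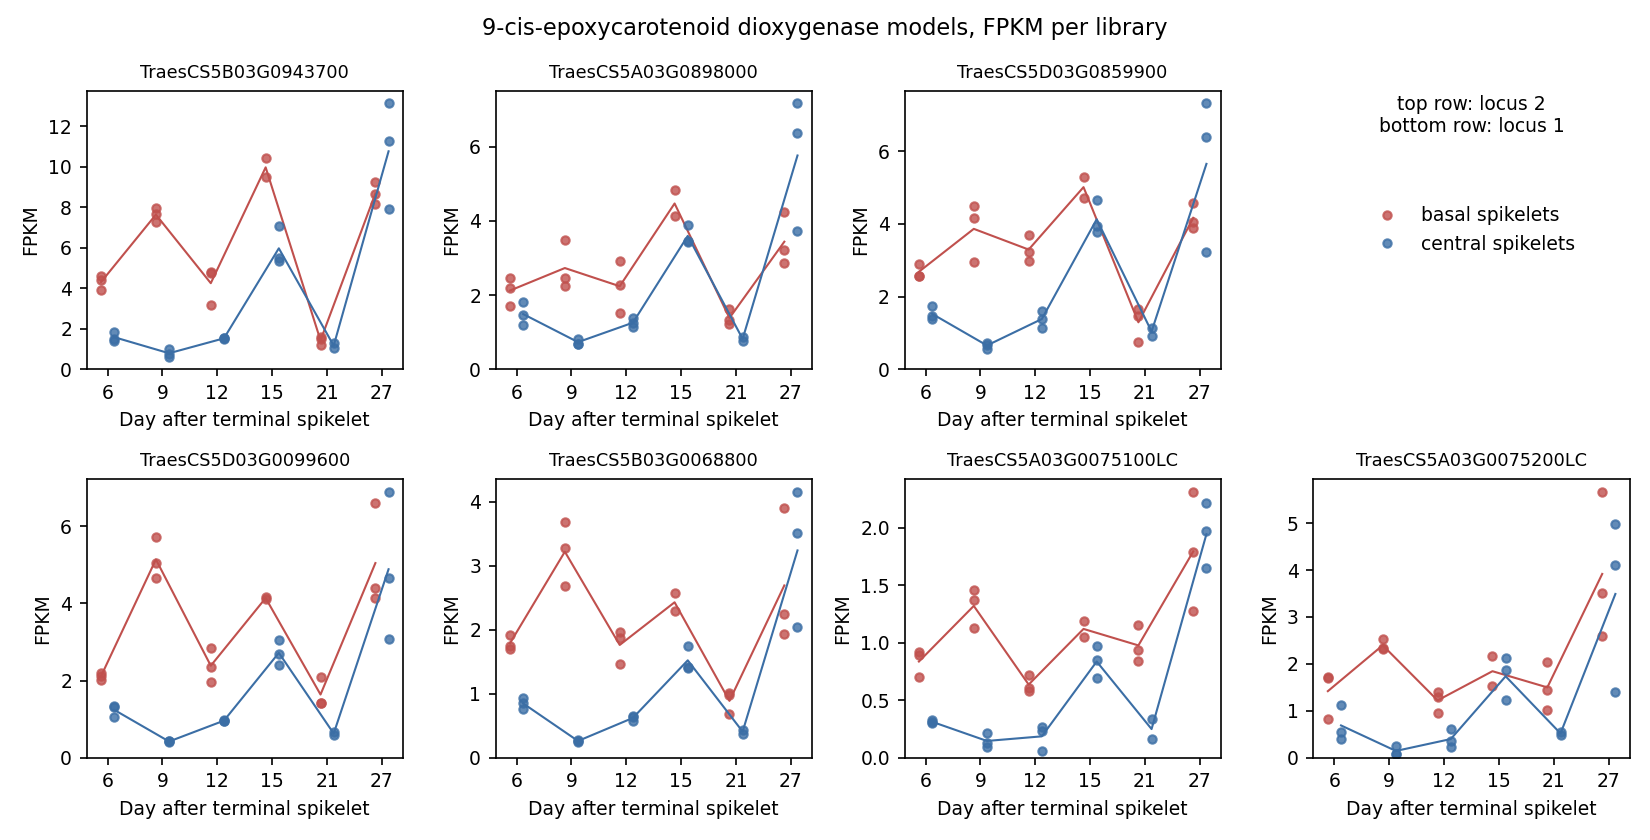
FPKM of the 7 NCED models (y axis) against the day after the terminal spikelet stage (x axis), with 1 point per library and lines through the group means, for basal (red) and central (blue) spikelets. The lowest group of every model is central day 9, and the basal points lie above the central points in all 7 panels on days 9 and 12.

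The most abundant member, TraesCS5B03G0943700 of locus 2, averaged 4.8 FPKM over the 34 libraries. On day 6 it stood at 3.92, 4.61 and 4.39 FPKM in basal and at 1.5, 1.42 and 1.84 FPKM in central spikelets. On day 9 the basal libraries held 7.96, 7.27 and 7.67 FPKM and the central ones 0.76, 0.61 and 1.01 FPKM. The groups did not overlap on either day, and on day 9 the lowest basal library was above the highest central library by more than the whole range within each group. The log2 difference was 1.51 ± 0.19 (standard error) on day 6 (edgeR quasi-likelihood test with Benjamini-Hochberg adjustment, adjusted p = 2.19e-06) and 3.27 ± 0.21 on day 9 (adjusted p = 9.24e-13), a 9.65-fold difference.

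On day 12 this gene was at 3.17, 4.81 and 4.77 FPKM in basal and at 1.55, 1.48 and 1.56 FPKM in central spikelets (log2 difference 1.45 ± 0.19, adjusted p = 2.97e-06). On day 15 it reached 10.42 and 9.51 FPKM in basal and 7.06, 5.51 and 5.34 FPKM in central spikelets. The groups were apart on both days. The day 15 difference was smaller, 0.62 ± 0.19 (adjusted p = 0.0197). That call was lost without basal day 15 replicate 1 (adjusted p = 0.157), basal day 15 replicate 2 (0.0511), central day 15 replicate 2 (0.0691) or central day 15 replicate 3 (0.0821).

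On day 21 TraesCS5B03G0943700 was low in both positions, at 1.60, 1.18 and 1.51 FPKM in basal and 1.29 and 1.05 FPKM in central spikelets. On day 27 it was high in both, at 8.14, 8.63 and 9.26 FPKM in basal and 7.89, 11.25 and 13.13 FPKM in central spikelets. The groups overlapped on both days. Neither difference was called, and their intervals of 2 standard errors ran from -0.04 to 0.88 on day 21 and from -0.57 to 0.12 on day 27.

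TraesCS5D03G0099600, the most abundant copy of locus 1, was among the members with the largest day 9 differences on the log2 scale. On day 9 it was at 5.73, 5.04 and 4.65 FPKM in basal and at 0.43, 0.41 and 0.43 FPKM in central spikelets (log2 difference 3.61 ± 0.26, adjusted p = 1.38e-11). Day 9 was its highest basal group, at 5.14 ± 0.55 FPKM (SD, n = 3), and the central libraries lay within 0.02 FPKM of each other. On day 21 it was at 2.09, 1.41 and 1.42 FPKM in basal and at 0.58 and 0.68 FPKM in central spikelets (log2 difference 1.51 ± 0.29, adjusted p = 0.000551). On day 27 it was at 6.61, 4.14 and 4.39 FPKM in basal and at 3.09, 4.67 and 6.90 FPKM in central spikelets. The groups were apart on day 21 and overlapped on day 27, when the difference of 0.13 was not called (interval -0.28 to 0.55).

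Its 5B homoeolog, TraesCS5B03G0068800, followed the same course at a lower level. It was at 3.69, 3.28 and 2.69 FPKM in basal and at 0.27, 0.28 and 0.24 FPKM in central spikelets on day 9 (log2 difference 3.6 ± 0.28, adjusted p = 4.82e-11). On day 21 the basal libraries held 1.01, 0.68 and 0.98 FPKM and the central ones 0.38 and 0.44 FPKM (log2 difference 1.23 ± 0.31, adjusted p = 0.00717). The groups were apart on both days. The day 21 call was lost without central day 21 replicate 1 (adjusted p = 0.0727) or replicate 2 (0.0513).

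The other 2 copies of locus 2 had smaller log2 differences on day 9 than the 5B copy. TraesCS5A03G0898000 was at 3.49, 2.24 and 2.46 FPKM in basal and at 0.69, 0.69 and 0.82 FPKM in central spikelets on day 9 (log2 difference 1.90 ± 0.27, adjusted p = 3.02e-06). TraesCS5D03G0859900 was at 4.49, 2.94 and 4.16 FPKM in basal and at 0.57, 0.68 and 0.72 FPKM in central spikelets on day 9 (2.56 ± 0.27, adjusted p = 2.22e-08). The groups did not overlap for either copy. TraesCS5A03G0898000 was the only member called lower in basal spikelets on any day. On day 27 it held 3.22, 2.87 and 4.23 FPKM in basal and 3.72, 7.19 and 6.38 FPKM in central spikelets, groups that overlapped (log2 difference -0.65 ± 0.23, adjusted p = 0.0392). That call was lost without basal day 27 replicate 1 (adjusted p = 0.118), basal replicate 2 (0.142), central replicate 2 (0.202) or central replicate 3 (0.126).

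The split 5A copy of locus 1 was the least abundant, at a mean of 0.874 FPKM for TraesCS5A03G0075100LC and 1.63 FPKM for TraesCS5A03G0075200LC. On day 9 TraesCS5A03G0075100LC was at 1.46, 1.37 and 1.13 FPKM in basal and at 0.09, 0.13 and 0.22 FPKM in central spikelets. TraesCS5A03G0075200LC was at 2.53, 2.32 and 2.34 FPKM in basal and at 0.26, 0.09 and 0.09 FPKM in central spikelets. These central values rested on 16, 23 and 35 estimated counts for the first model and on 12, 4 and 4 for the second. Reads were thus assigned to both models of the annotated pseudogene. Both models were called higher in basal spikelets on day 9 (log2 differences 3.18 ± 0.34 and 3.96 ± 0.65). Whether these reads came from the 5A copy or from its 5B and 5D homoeologs was not tested.

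Counted over the 7 members, 5 were called higher in basal spikelets on day 6 (7.91% of all tested models) and 7 on day 9 (18.1%). On day 12, 6 were called higher (13.6%), and on day 15 only TraesCS5B03G0943700 was (8.89%). On day 21, 3 were called higher (10.2%), all of locus 1. No member was called higher on day 27 (11.3%), and 1 was called lower (10.4%). The median log2 difference of the 7 was 1.09, 3.27 and 1.45 on days 6, 9 and 12, then 0.30, 1.23 and -0.18 on days 15, 21 and 27. The basal and central FPKM ranges were apart, with basal higher, for 5 members on day 6 (14.7% of all tested models), 7 on day 9 (26.0%), 7 on day 12 (23.4%), 6 on day 15 (33.8%), 5 on day 21 (16.7%) and 0 on day 27 (10.8%).

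**Figure D2:**
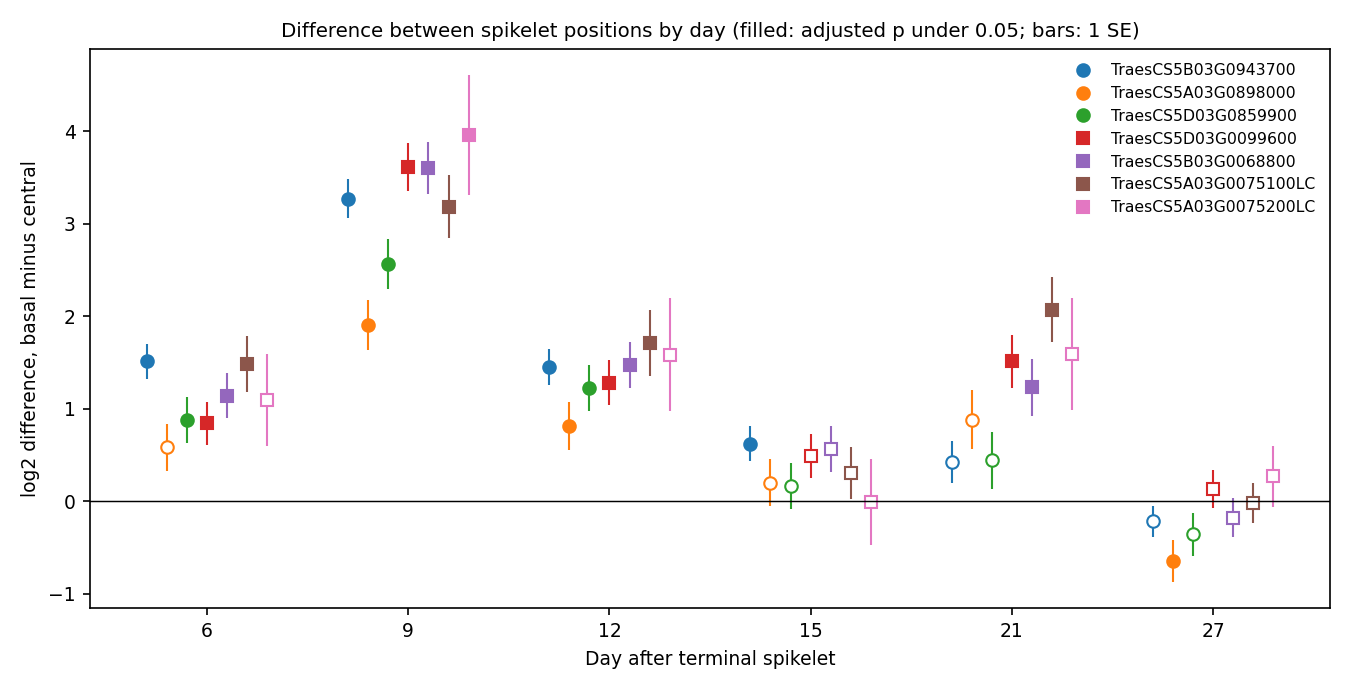
The log2 difference in level, basal minus central (y axis), of the 7 NCED models on each day (x axis), with bars of 1 standard error, circles for locus 2 and squares for locus 1. Filled symbols are called at an adjusted p under 0.05: all 7 on day 9, 1 on day 15, and 3 of the 4 locus 1 models on day 21.

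Day 6 and day 12 calls near the threshold turned on single libraries. On day 6, TraesCS5D03G0099600 (log2 difference 0.84) was not called without basal day 6 replicate 1 (adjusted p = 0.054) or central day 6 replicate 2 (0.0637), and TraesCS5D03G0859900 (0.88) was not called without basal day 6 replicate 2 (0.0516) or central day 6 replicate 1 (0.0597). On day 12, TraesCS5A03G0898000 (0.81) was not called without basal day 12 replicate 2 (0.179), central day 12 replicate 1 (0.0561) or central day 12 replicate 2 (0.0672). The day 9 calls of all 7 members held without any 1 of the 34 libraries.

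Other members were called only when 1 library was left out. On day 12, TraesCS5A03G0075200LC (log2 difference 1.58) was called without basal day 12 replicate 1 (adjusted p = 0.0459), basal day 27 replicates 1 or 2 (0.0453 and 0.0468) or central day 27 replicates 1 or 3 (0.0211 and 0.0449). On day 21 the same model (1.59) was called without basal day 21 replicate 2 (0.0499) or central day 27 replicate 1 (0.0257). Also on day 21, TraesCS5A03G0898000 of locus 2 (0.88) was called without basal day 9 replicate 1 (0.0495), basal day 12 replicates 1 or 2 (0.0366 and 0.0417) or central day 27 replicates 1 or 2 (0.0254 and 0.0488), so the day 21 calls were not of locus 1 alone in those fits. Without central day 27 replicate 1, TraesCS5B03G0068800 was called higher on day 15 (0.0497) and TraesCS5D03G0859900 was called lower on day 27 (0.0201).

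The basal minus central difference changed over the 6 days for all 7 members (adjusted p from 1.46e-09 to 0.00238), as it did for 56.7% of all tested models. In central spikelets the levels fell and rose in turn. From day 6 to day 9, all 7 were called lower (21.3% of all tested models), with log2 changes from -1.07 to -2.25. From day 9 to day 12, the 5 high-confidence copies were called higher (17.0%), with log2 changes from 0.78 to 1.23. All 7 then rose to day 15 (22.0%), fell to day 21 (21.4%) and rose to day 27 (23.6%). The rise from day 21 to day 27 was the largest of these steps for each of the 7 members, with log2 changes from 2.48 to 3.23. All 7 members, and 0.552% of all tested models, were called lower on day 9, higher on day 15, lower on day 21 and higher on day 27, each against the day before. That combination was picked after the levels were seen.

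Some of these central steps were close to the threshold. TraesCS5A03G0075100LC was not called from day 6 to day 9 when any of central day 6 replicates 1, 2 and 3 or central day 9 replicates 1 and 2 was left out (adjusted p = 0.0529, 0.0503, 0.0622, 0.133 and 0.0767). TraesCS5A03G0075200LC lost that call without central day 6 replicate 3 (0.175) or central day 9 replicates 2 or 3 (0.0999 and 0.0897). It lost its fall to day 21 without central day 15 replicate 2 (0.0512) or central day 21 replicates 1 or 2 (0.0691 and 0.0938). The rise of TraesCS5A03G0898000 from day 9 to day 12 (0.78, adjusted p = 0.0447) was lost in 11 of 34 fits without 1 library (adjusted p = 0.0501 to 0.119): any of the 3 central day 9 or 3 central day 12 libraries, basal day 6 replicate 1, central day 6 replicate 1, basal day 12 replicate 3, central day 15 replicate 2 or basal day 27 replicate 1. The central steps of the other 4 members held in all 34.

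Basal spikelets went the other way on day 9. From day 6 to day 9, 3 members were called higher and none lower (17.5% and 16.5% of all tested models): TraesCS5B03G0943700 by 0.69, TraesCS5D03G0099600 by 1.15 and TraesCS5B03G0068800 by 0.71 on the log2 scale. The last of these calls was lost without basal day 9 replicate 1 (adjusted p = 0.0644). From day 9 to day 12, 4 members were called lower (16.5%), the same 3 and TraesCS5A03G0075100LC. TraesCS5A03G0075200LC (-1.01) was called too without basal day 27 replicate 1 (0.0497) or central day 27 replicates 1 or 3 (0.0241 and 0.0491). From day 12 to day 15, 5 were called higher (21.3%), and TraesCS5B03G0068800 was called as well without central day 27 replicate 1 (0.0406). Among the 5, TraesCS5A03G0075100LC was not called without basal day 15 replicate 1 (0.115). TraesCS5D03G0859900 was not called without basal day 12 replicates 1 or 3 (0.107 and 0.0742) or basal day 15 replicates 1 or 2 (0.189 and 0.0685). From day 15 to day 21 the 5 high-confidence copies were called lower (26.3%), TraesCS5B03G0943700 most, by a log2 change of -2.63 ± 0.21. The 5A pseudogene models had changes of -0.03 ± 0.28 and -0.17 ± 0.48, which were not called, and their difference from the other copies was not tested. All 7 were called higher from day 21 to day 27 (29.9%).

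Ordered by the summed FPKM of the 7 members, central day 27 was first (35.7), followed by basal day 27 (29.7), basal day 15 (29.0) and basal day 9 (26.3). Among these groups, neighbours in the order had overlapping libraries. Central day 15 (20.5) stood apart from its neighbours. Basal day 12 (15.8) and basal day 6 (15.3) overlapped each other, as did basal day 21 (9.11) and central day 6 (7.70). Central day 12 (6.34), central day 21 (4.84) and central day 9 (3.16) came last, none overlapping the next. Sums of FPKM weight each model per length, and the split 5A copy of locus 1 enters these sums as 2 models. The order differed for the sum of the 5 high-confidence copies. There basal day 15 (26.0) came before basal day 27 (24.0), and central day 6 (6.70) before basal day 21 (6.64).

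Basal spikelets were also set against central spikelets of the sampling day before, in comparisons that share their libraries with those above. All 7 members were higher in basal day 9 than in central day 6 (13.2% of all tested models were called higher), in basal day 12 than in central day 9 (15.0%) and in basal day 15 than in central day 12 (12.4%). For TraesCS5B03G0943700 the log2 differences were 2.20 ± 0.19, 2.40 ± 0.21 and 2.75 ± 0.21. For TraesCS5A03G0898000 they were 0.80 ± 0.25, 1.60 ± 0.28 and 1.88 ± 0.27. All 3 were called higher together in 3.68% of all tested models. In the first of them, TraesCS5A03G0898000 was not called without central day 6 replicate 1 (adjusted p = 0.0585), central day 6 replicate 2 (0.0979) or basal day 9 replicate 1 (0.134), and TraesCS5A03G0075200LC was not called without central day 6 replicate 1 (0.0532). In the last, TraesCS5A03G0075200LC was not called without basal day 15 replicate 2 (0.0977). Whether a lag of 1 sampling day matches the stages was not tested.

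Within locus 2 the copies took different shares in the 2 positions. TraesCS5B03G0943700 held 47.1% ± 7.2 (SD) of the summed FPKM of the 3 copies in the 17 basal libraries and 39.8% ± 5.9 in the 17 central ones, a difference of 7.34 percentage points (two-sided permutation test within days with 100000 resamples, p = 4e-05, adjusted over the 3 copies 0.00012). TraesCS5A03G0898000 held 23.9% ± 5.8 against 29.4% ± 3.7, a difference of -5.48 points (permutation p = 0.00113, adjusted 0.00169). TraesCS5D03G0859900 held 29.0% ± 4.5 against 30.8% ± 4.3, which was not called (permutation p = 0.0964). This last share was called without basal day 12 replicate 1 (adjusted p = 0.0375) or basal day 21 replicate 3 (0.0488). Day 9 showed the 5B share at 54.0% ± 4.2 in basal and 36.0% ± 4.6 in central spikelets. On day 21 the order was the opposite, 35.1% ± 2.2 against 38.6% ± 0.56, and the 5A copy stood at 34.2% ± 4.6 in basal and 27.1% ± 1.2 in central spikelets. How far the authors' division of reads among the copies enters these shares was not tested.

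**Figure D3:**
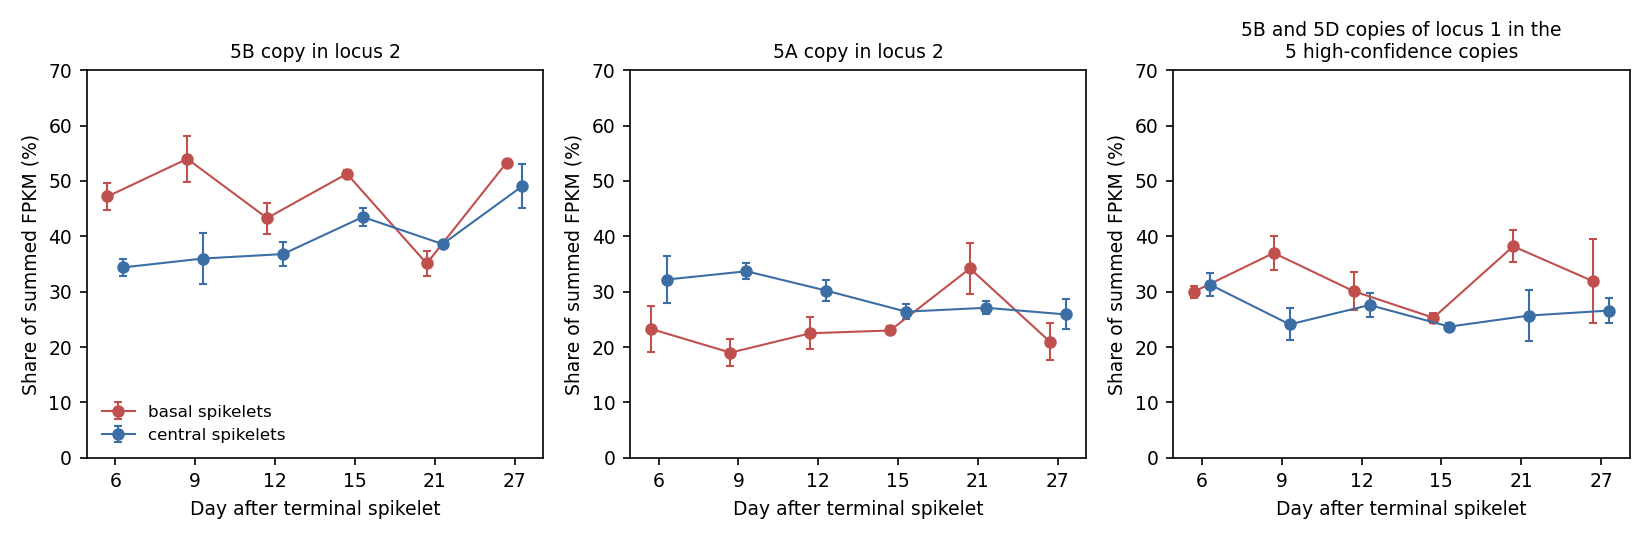
Shares of summed FPKM in percent (y axis) by day (x axis) for the 5B copy within locus 2, the 5A copy within locus 2, and the 5B and 5D copies of locus 1 within the 5 high-confidence copies, as group means with bars of 1 SD, n = 3 or 2. The basal 5B share (red) lies above the central one (blue) on every day but 21, and the locus 1 share is 38.2% in basal and 25.7% in central spikelets on day 21.

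The balance between the loci is given as a description, because the share was chosen after the values by day were seen. The 5B and 5D copies of locus 1 together held 32.5% ± 5.5 of the summed FPKM of the 5 high-confidence copies in basal and 26.5% ± 3.4 in central libraries, a difference of 5.94 percentage points. The share was 37.0% ± 3.1 against 24.1% ± 2.9 on day 9 and 38.2% ± 2.9 against 25.7% ± 4.6 on day 21, with no overlap on either day. On day 6 it was 30.0% ± 1.1 against 31.3% ± 2.1, and the groups overlapped. The shares within locus 1 are given without a test, because its summed FPKM was as low as 0.91 in a library. That sum counts the split 5A copy as 2 models. TraesCS5D03G0099600 held between 32.9% and 44.6% of locus 1 in the group means and TraesCS5B03G0068800 between 17.9% and 29.5%.

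Over the 12 group means, the high-confidence members were like each other. Of 51207 models with a mean of at least 1 FPKM, the 5 with the highest Pearson correlation of log2(FPKM + 0.1) with TraesCS5D03G0099600 were TraesCS5B03G0068800 (r = 0.986), TraesCS5B03G0943700 (0.959), TraesCS5A03G0075200LC (0.953), TraesCS5D03G0859900 (0.948) and TraesCS5A03G0898000 (0.931). The 4 most like TraesCS5B03G0943700 were TraesCS5D03G0859900 (0.987), TraesCS5A03G0898000 (0.964), TraesCS5B03G0068800 (0.960) and TraesCS5D03G0099600 (0.959). The fifth was TraesCS7B03G0284300 (0.950), named TIFY 11e-like, of a family that includes repressors of jasmonate signalling, with a mean level of 2.08 FPKM and a log2 difference of 0.94 in the mean of 6 days. The 5A pseudogene models were less like it: TraesCS5A03G0075200LC ranked 63 (0.888), and TraesCS5A03G0075100LC, with a mean below 1 FPKM and so outside the ranking, had 0.875 (0.938 with TraesCS5D03G0099600). These correlations describe 12 points that come from shared libraries, and near-identical copies can share reads.

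The genes of the other synthesis steps were mostly lower in basal spikelets in the mean of 6 days and on day 9, while more were called higher than lower on days 21 and 27. The list held 31 tested models other than NCED, from zeaxanthin epoxidase to aldehyde oxidase. It also counted violaxanthin de-epoxidase and molybdenum cofactor sulfurase. Of the 31, 19 were called lower and 1 higher in basal spikelets in the mean of 6 days (17.5% and 16% of all tested models). Their median log2 difference was -0.27. On day 9, 17 were called lower and 1 higher (18.2% and 18.1%), with a median of -0.82 beside 0.01 over all tested models. On day 21, 4 were called higher and 1 lower (10.2% and 6.88%), and on day 27, 10 were called higher and 3 lower (11.3% and 10.4%), with a median of 0.33. Zeaxanthin epoxidase, which makes violaxanthin from zeaxanthin, had 5 of 6 models lower, and violaxanthin de-epoxidase, which acts in the reverse direction, had 4 of 5 lower, both in the mean of 6 days. On day 27 the first had 2 higher and 0 lower and the second 3 higher and 0 lower. The 3 neoxanthin synthesis models were not called in the mean, while all 3 were called lower on day 9, and 2 were called higher on day 21. Xanthoxin dehydrogenase, directly after NCED, had 1 model (TraesCS5A03G1097500), at 3.42 ± 0.18 FPKM in basal against 6.29 ± 0.52 FPKM in central spikelets on day 27 (log2 difference -0.78 ± 0.12, adjusted p = 2.98e-05) and not called on the 5 other days.

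Aldehyde oxidases, of which some catalyse the last step, had 9 of 13 models lower and 1 higher in the mean of 6 days. Of all tested models, 17.5% were lower and 16% higher there. On day 27, 2 of the 13 were lower and 4 higher (10.4% and 11.3% of all tested models). TraesCS7D03G1178200 was at 0.483 ± 0.065 FPKM in basal against 2.03 ± 0.38 FPKM in central spikelets on day 9, and over the mean of 6 days it was 2.43-fold lower in basal spikelets (adjusted p = 2.15e-12). The description does not tell which aldehyde oxidases act on abscisic aldehyde. The exception, TraesCS7A03G1236900, was 1.10-fold higher (adjusted p = 0.0228). None of 3 molybdenum cofactor sulfurase models, for the enzyme that activates aldehyde oxidase, was called in the mean of 6 days or on day 9, where their log2 differences were -0.24 to -0.30.

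Breakdown models were lower in basal spikelets in the mean of 6 days and higher on day 27. Of 6 tested abscisic acid 8'-hydroxylase models, 4 were called lower in basal spikelets and 0 higher in the mean of 6 days (17.5% and 16% of all tested models). On day 27, 5 of the 6 were called higher and 0 lower (11.3% and 10.4%), with a median log2 difference of 1.30. The summed level of the 10 listed models was then 35.5 to 67.8 FPKM in basal and 20.7 to 28.1 FPKM in central libraries. TraesCS6A03G0725000 was at 0.337 ± 0.085 FPKM in basal against 0.970 ± 0.089 FPKM in central spikelets on day 6, and at 8.18 ± 0.58 and 12.0 ± 1.8 FPKM on day 12. Its log2 difference in the mean of 6 days was -0.77 ± 0.06 (adjusted p = 4.4e-10), and TraesCS6B03G0858400 had -0.51 ± 0.06 (adjusted p = 1.25e-07). On day 27 the first was not called (0.04 ± 0.14) and the second was called higher (0.53 ± 0.13, adjusted p = 0.00364). Of the 4 tested carotenoid cleavage dioxygenase models, sister enzymes of NCED that do not make xanthoxin, 3 were lower in the mean of 6 days (17.5% of all tested models), with log2 differences of the 4 from -0.19 to -0.27. On day 27, 3 of the 4 were called higher and 0 lower (11.3% and 10.4%), with a median of 0.44.

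Upstream, 10 of 24 carotenoid supply models were lower and 3 higher in the mean of 6 days (17.5% and 16% of all tested models), so the share called higher was below that of all tested models. On day 27, 7 were higher and 6 lower (11.3% and 10.4%). The 3 higher in the mean of 6 days were phytoene synthases, the enzymes of the first committed step of carotenoid synthesis. TraesCS5B03G0902000 was at 1.57 ± 0.14 FPKM in basal against 0.503 ± 0.17 FPKM in central spikelets on day 6, and at 1.34 ± 0.39 and 0.130 ± 0.056 FPKM on day 9 (log2 difference 3.33 ± 0.51, adjusted p = 7.45e-06). On day 27 it was lower in basal spikelets, at 1.54 ± 0.22 against 4.61 ± 1.6 FPKM (-1.49 ± 0.31, adjusted p = 0.000904). The more abundant phytoene synthase TraesCS5A03G0051400, at a mean of 12.4 FPKM, was 1.30-fold lower.

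**Figure D4:**
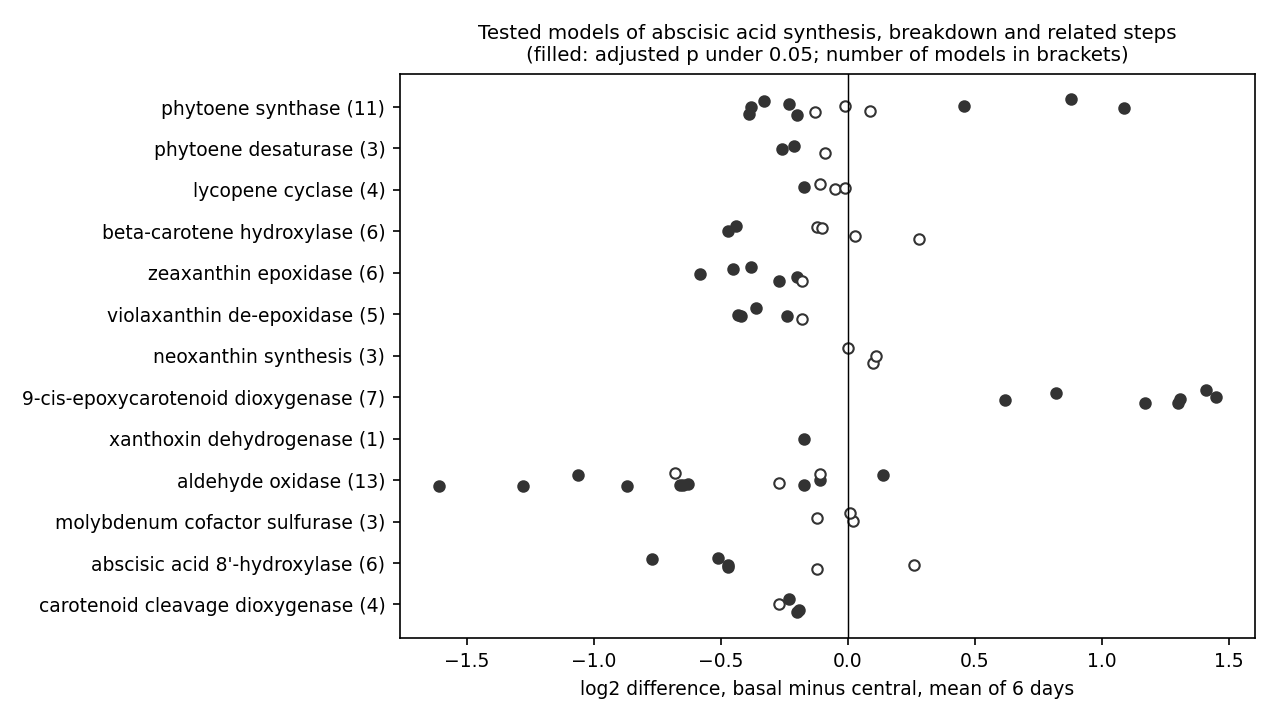
The log2 difference in level, basal minus central, in the mean of 6 days (x axis), with 1 point per tested model, grouped by step of carotenoid supply, abscisic acid synthesis and breakdown (y axis). All 7 NCED points are filled (adjusted p under 0.05) and lie between 0.62 and 1.45, and the zeaxanthin epoxidase points and violaxanthin de-epoxidase points all lie below 0.

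Other genes differed between the positions on the same days. LHY, a clock transcription factor with a peak of expression around dawn, summed over 3 copies on chromosome 7 to 9.56 ± 0.40 FPKM in basal against 72.4 ± 3.5 FPKM in central spikelets on day 9. Of 22 tested clock models, 12 were called higher and 5 lower in basal spikelets that day (18.1% and 18.2% of all tested models). LHY was the other way round on day 6, at 29.0 ± 1.6 against 13.3 ± 0.69 FPKM. On day 12 it was between 19.34 and 20.95 FPKM in all 6 libraries. Its 3 copies had log2 differences of -0.10, -0.05 and -0.01 that day, not called. On day 21 the 3 copies had differences of -0.10, -0.02 and 0.20, not called. The 27 listed clock models, LHY included, summed to 160 to 186 FPKM in basal and 184 to 191 FPKM in central libraries on day 12. On day 21 they summed to 262 to 282 FPKM in basal and 289 to 296 FPKM in central libraries, without overlap. Of the NCED members, 6 of 7 were called higher on day 12 and 3 of the 4 at locus 1 on day 21. The part of time of day in the differences of the NCED members was not tested on any day, days 12 and 21 included.

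**Figure D5:**
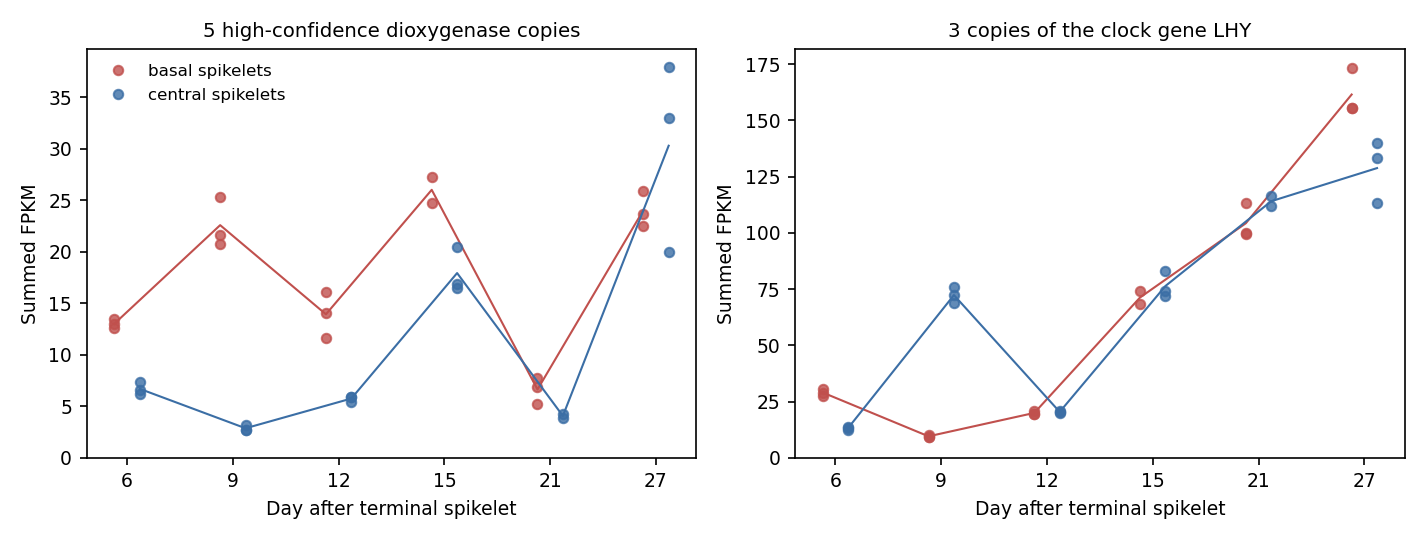
Summed FPKM per library (y axes) by day (x axes) of the 5 high-confidence NCED copies and of 3 copies of the clock gene LHY in basal (red) and central (blue) spikelets, with lines through the group means. On day 9 the central libraries hold 2.67 to 3.22 FPKM of NCED and 68.99 to 75.89 FPKM of LHY. On day 12 LHY is at 19.34 to 20.95 FPKM in both positions. NCED is then at 11.59 to 16.14 FPKM in basal and 5.41 to 5.93 FPKM in central spikelets. The part of time of day was not tested.

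Dehydrin and late embryogenesis abundant genes, many of which are known to respond to abscisic acid and water stress, had 33 of 49 tested models higher and 0 lower on day 9 (18.1% and 18.2% of all tested models, as for the other day 9 counts here), and their 86 listed models summed to between 294 and 307 FPKM in basal and between 103 and 141 FPKM in central libraries. On day 12, when 6 NCED members were higher, 6 of these 49 were higher and 11 lower (13.6% and 14.5% of all tested models), and the sums were 204 to 253 FPKM in basal and 319 to 363 FPKM in central libraries. On day 27, 23 were lower and 0 higher (10.4% and 11.3%). The sums of the 86 listed models on day 6 were 152 to 162 FPKM in basal and 178 to 186 FPKM in central libraries. They were 799 to 902 against 530 to 599 FPKM on day 15 and 1460 to 1500 against 1180 to 1400 FPKM on day 21. Photosynthesis genes for the Rubisco small subunit and light harvesting had 63 of 71 tested models lower in basal spikelets on day 9, with summed levels of 1920 to 2170 FPKM in basal and 4930 to 5630 FPKM in central libraries. On day 21, when 3 NCED members were called higher, 33 of these 71 were higher and 0 lower (10.2% and 6.88%). Of their 76 listed models, 5 were at 0 in basal and 2 in central day 9 libraries. Secondary wall cellulose synthase and laccase genes, markers of vascular tissue, had 21 of 30 tested models lower and 1 higher on day 9, and their 84 listed models summed to 15.8 to 16.7 FPKM in basal and 43.4 to 46.0 FPKM in central libraries, with 38 and 30 at 0. On day 21, 20 of these 30 were higher and 1 lower. Floral MADS-box genes had 12 of 24 tested models lower and 0 higher on day 9, with sums of 415 to 447 and 553 to 642 FPKM. Of 98 tested pollen and anther models, 2 were higher and 10 lower on day 9, both below the share of all tested models, and the 144 listed models summed to 116 to 123 and 164 to 167 FPKM, with 74 and 80 at 0. The part of tissue makeup and developmental stage in the NCED differences was not tested.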

How the data were processed

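Per the labels' protocols, total RNA extracted with Trizol, with an RNA integrity number above 7, went into Illumina libraries. The authors deposited FPKM values and estimated counts for each model and library, made with steps that the file headers do not name. The submitters' processing notes name Bowtie 0.12.2 and the mouse builds mm8 and mm9, and no wheat build. Among small counts, 33.9% to 35.6% were multiples of 4 in a library, so a count may not be 1 fragment and counting intervals are not given. Estimated counts were rounded and tested with edgeR 4.0.16 (quasi-likelihood, TMM scaling, 12 group means, R 4.3.3), with Benjamini-Hochberg adjustment over 71963 models, which held 98.86% to 99.21% of the counts. Folds are fitted. Shares came from FPKM. The test scripts were tested on simulated data. RefSeq names came from overlap with the IWGSC CS reference: 85.7% of 89539 high-confidence models overlapped a protein-coding gene, and 6.4% after a shift of 5 Mb. No sequence was used here. The members and lists, matched by words in descriptions (models that join several genes left out), were chosen with earlier results of these data known. Pathway genes were drawn from those that a fixed rule on size and level picked. Not all of those are named, and genes named beyond the rule were chosen after their values were seen. No word match was found for abscisate glucosyltransferase. Alternatives were DESeq2 1.42.0, limma 3.58.1 on log2(FPKM + 0.1) and log2(FPKM + 1), other scalings and filters, the older quasi-likelihood fit, replicate blocks and each of 34 libraries left out.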

Additional observations from a re-analysis of the deposited data

Results flagged for a closer look

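The basal minus central difference changed over the 6 days for each of the 7 members, by the edgeR quasi-likelihood F test of equal differences on all days, which 56.7% of all tested models passed. The adjusted p was 1.46e-09 for TraesCS5B03G0943700, with log2 differences from -0.22 on day 27 to 3.27 on day 9. It was 7.83e-08 for TraesCS5D03G0099600 (0.13 to 3.61 on the same days) and 9.12e-08 for TraesCS5B03G0068800 (-0.18 to 3.6). It was 3.92e-06 for TraesCS5D03G0859900 (-0.36 to 2.56) and 4.82e-05 for TraesCS5A03G0898000 (-0.65 to 1.90). The pseudogene models TraesCS5A03G0075100LC and TraesCS5A03G0075200LC had 3.18e-06 and 0.00238. With at most 3 libraries in a group, single libraries that stand apart were not screened for.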

How the results depend on the processing

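The calls of all 7 members on day 9, in the mean of 6 days and for the change over days held in every alternative run that tested them. They also held without any 1 library. DESeq2 was not used for the change over days. Other counts of called members moved. On day 15 (1 called), limma on log2(FPKM + 1) called 2, and the fit with the replicate number as a block within each day called 0. On day 21 (3 called), DESeq2 called 5. On day 27 (1 called), 0 were called with RLE size factors, DESeq2, no filter, the older quasi-likelihood fit or the replicate block. Leaving out 1 library at a time gave 4 to 5 calls on day 6, 7 to 7 on day 9, 5 to 7 on day 12, 0 to 2 on day 15, 2 to 5 on day 21 and 0 to 2 on day 27. It gave 22 to 26 of 35 for basal steps, 30 to 33 of 35 for central steps, 19 to 21 of 21 for lagged comparisons and 2 to 3 of 3 for shares of locus 2. Where the fit leaves 1 library in a group, that library is assumed to vary like the others. For single members under other settings, 1204 values stayed on their side of the threshold, 18 lost a call and 13 gained one. No called value changed sign; 23 uncalled ones did, with main log2 differences of 0.27 at most. The replicate numbers showed no clear pairing of the samples, though groups of 2 or 3 libraries cannot exclude it. Correlations of same-numbered deviations ran from -0.325 to 0.355, with 4 of 16 over 0.1. Of 16 basal libraries, 7 matched their own number best. Over all tested models, day 21 calls fell from 12300 to 7893 with the replicate block. The share of higher calls in the mean of 6 days moved from 47.8% to 38.0% on log2(FPKM + 0.1), where all 7 members stayed higher. Without basal day 15 replicate 1 or 2, day 15 calls fell from 16345 to 9604 or 10776; without central day 21 replicate 1 or 2, day 21 calls fell to 7021 or 5987. The cause of these changes was not tested beyond the smaller number of libraries. Depth limits the 5A models of locus 1 most, with 4 to 35 estimated counts in central day 9 libraries.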
